A study of Mus musculus with 24 samples.

Results

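Map3k11, Dusp6, Bap1, Ppp1ca, Tdg, Cbfb, Lfng, Slc35a4 and Ddx19b are 9 mouse genes that have been published as targets of the microRNA miR-125b, and their messenger RNA levels are described here gene by gene. They were found by matching the Ensembl identifiers of the count table to gene symbols. All 9 were in the table of 47069 genes and all 9 were among the 13419 genes with enough counts to be tested. The cells were fetal liver cells of stage E12.5-13.5 from a mouse strain that expresses Cas9 and EGFP from the CAG promoter at the Rosa26 locus, and whose full name begins B6J.129(Cg)-Gt(ROSA)26Sortm1.1 and ends, with nothing between, in (CAG-cas9*,-EGFP)Fezh/J. Every group, controls included, carried the guide construct sgGata1, and the labels call the cells Gata1s-FLCs, so no group with unedited Gata1 enters any comparison. Gata1s (GATA1s as a protein) is the short form of the blood transcription factor GATA1. A second construct held either miR-125b or the control miR-ctrl, and doxycycline was given at 1 µg/mL. The 8 groups were the miR-125b arm and the control arm at day 2 (48 hours of doxycycline), at day 10, at day 13 with doxycycline throughout, and at day 13 with doxycycline withdrawn on day 10, with 3 libraries in each. The labels number the libraries 1 to 3 in every group without saying whether a number is an embryo, a litter or a culture, so p-values measure the spread between these libraries, which may be partly technical.

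A microRNA guides an Argonaute protein to messenger RNAs, usually through pairing of its seed, bases 2 to 8 from its 5′ end, with the 3′ untranslated region (3′ UTR) of the target. The outcome is a lower rate of translation, faster decay of the message, or both, so a table of RNA counts reads only part of the effect. In the blood system miR-125b is abundant in stem cells and is best known for expanding stem and progenitor cells and for its place on human chromosome 21. The published targets below have unlike roles. They include signalling enzymes, a chromatin enzyme, a transcription factor subunit, a DNA repair enzyme, a Notch-modifying enzyme, a transporter and an RNA helicase.

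The mature miR-125b-5p sequence and the best seed match in each gene's 3′ UTR are shown because the seed is the part of the microRNA that usually pairs with a target. The capitals mark the seed in the microRNA and the matching bases in the messages, all written 5′ to 3′. The microRNA is from RefSeq (GRCm38.p6) and is made from Mir125b-1 at chr9:41581940-41581961 and Mir125b-2 at chr16:77646279-77646300. The messages are from GENCODE release M21 (GRCm38), and each window holds 30 bases. The match to the whole seed is CTCAGGG, and an A after it makes an 8-base match.
miR-125b-5p: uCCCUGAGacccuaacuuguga
Map3k11: ttaggaggaccagagcctgtCTCAGGGAat
Bap1: tcctctgggagagcaccaaaCTCAGGGAcc
Lfng: atgatgataagggaaaagctCTCAGGGAat
Ddx19b: gagcacgtagaggcagagtcCTCAGGGAgg
Ppp1ca: tcctggggccaaggctgcagCTCAGGGcaa
Tdg: agggtgcctctcagctcgggCTCAGGGctg
Cbfb: acagactggcttctgttttatTCAGGGAtt
Dusp6: attacctctgtacaaaattctTCAGGGAgt

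Of the 9 genes, 7 held at least 1 CTCAGGG (read on the message strand) in their longest annotated 3′ UTR, against 15.9% of the 11665 tested genes with an annotated 3′ UTR. The 8-base form CTCAGGGA, which contains CTCAGGG, stood in 5 of the 9, against 5.61% of those genes. Cbfb and Dusp6 held no CTCAGGG. Their best match was TCAGGGA, which lacks the base opposite seed base 8, and the shorter TCAGGG contained in all these forms was present in all 9 genes and in 36.4% of the tested genes. Ddx19b had the most CTCAGGG matches, 4, all of the 8-base form, and it also had the longest 3′ UTR with 5062 bases. Map3k11 had a single 8-base match in 521 bases. The median 3′ UTR was 1105 bases for the 9 genes and 1145 bases for the tested genes. The genes are here because they were published as targets, and a seed match may have been part of how they were picked. The shares are thus no independent evidence that they are targets. These are letters in a window, and binding was not measured in these data.

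**Figure D1:**
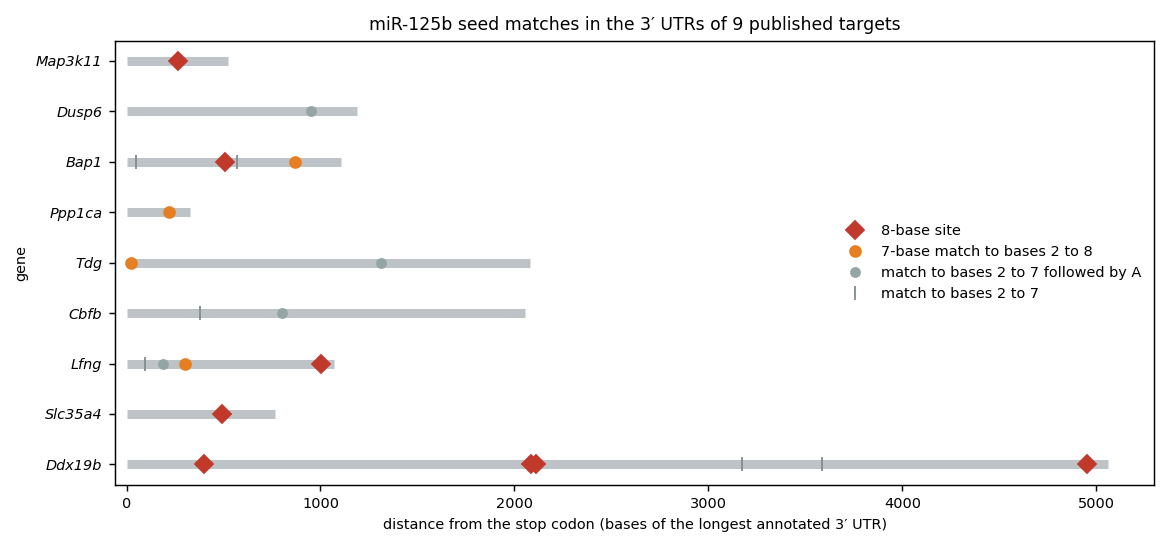
Position of miR-125b seed matches in the 3′ UTR of each of the 9 genes. The x axis is the distance from the stop codon in bases, the grey bar is the longest annotated 3′ UTR, and the symbol gives the kind of match. Ddx19b holds 4 matches of 8 bases in 5062 bases, while Cbfb and Dusp6 hold no CTCAGGG and have TCAGGGA as their longest match.

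Library totals ran from 14694900 to 23755245 counts, and the 9 genes had between 153 (Dusp6) and 16583 (Ppp1ca) counts in a library. As a check of the constructs, Gata1 counts differed in no comparison (lowest adjusted p = 0.775 in edgeR's quasi-likelihood test), which a gene-level count of an edited gene cannot resolve further. Arid3a, the target in the series title, averaged 34.1 CPM with miR-125b and 59.7 CPM in the control at day 2, and 31.8 and 58.5 CPM at day 10 (edgeR adjusted p = 0.0230 at day 10). CPM are counts scaled to a common library total with edgeR's TMM factors. In the day 13 libraries labelled as continued, Arid3a averaged 52.2 CPM with miR-125b and 61.0 CPM in the control (log2 fold change -0.22, adjusted p = 0.999), and in those labelled as withdrawn 31.2 and 69.5 CPM (-1.15, adjusted p = 0.00435). Arid3a was lower in all 3 same-numbered pairs of both, but was called lower only where the label says that the drug had been removed. The difference between the 2 effects, -0.93 ± 0.23 on the log2 scale, had an unadjusted p of 0.000611 and an edgeR adjusted p of 0.9999 and was not called. Its direction goes against the labels if doxycycline drives the construct. The day 13 groups are called "labelled continued" and "labelled withdrawn" for that reason. The annotated genes Mir125b-1 and Mir125b-2 had 0 counts in every library, so the microRNA itself was not read out. All 8 megakaryocyte markers were above 1 CPM in every group, with a summed level of 2794 to 7167 CPM per library. The summed level per library was 79.6 to 278 CPM for 8 erythroid markers and 448 to 1258 CPM for 5 stem and progenitor markers. Most of the latter sum came from Gata2 (268 to 1053 CPM) and Meis1 (106 to 191 CPM). Kit was at 18.3 to 39.985 CPM, Cd34 at 1.01 to 33.8 CPM and Mecom at 0 in every library. Of the erythroid markers, Alas2 reached at most 0.586 CPM. The 5 hepatocyte markers summed to at most 4.56 CPM. Among these Afp was at 1.36 to 4.45 CPM, and Alb and Ttr, which define that cell type, were at 0 in most groups. The summed level of 8 granulocyte and mast cell markers at day 2 was 128 to 189 CPM in the miR-125b libraries and 87.3 to 107 CPM in the controls, and at day 10 it was 119 to 236 and 70.8 to 297 CPM. The part of these markers in the results below was not tested, and in bulk RNA fewer cells of a type and less RNA per cell cannot be told apart.

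Per kilobase of exon, which allows levels of different genes to be compared, Ppp1ca was the highest of the 9 with a mean over 24 libraries of 263 CPM per kilobase. It was followed by Slc35a4 (50.4), Cbfb (42.9), Bap1 (20.5), Tdg (20.1), Lfng (14.9), Map3k11 (14.4), Dusp6 (5.32) and Ddx19b (4.42). The lower end of this order lay near the middle of all tested genes, and Ppp1ca at percentile 98.7 lay near their top. Across the 8 groups the highest group mean of a gene was 1.18 to 1.44 times its lowest in 8 genes and 2.10 times in Dusp6. When the 8 groups of a gene were put in order of their means, the 7 steps between neighbouring groups overlapped in every gene, so the order of the groups is read only from the ends.

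**Figure D2:**
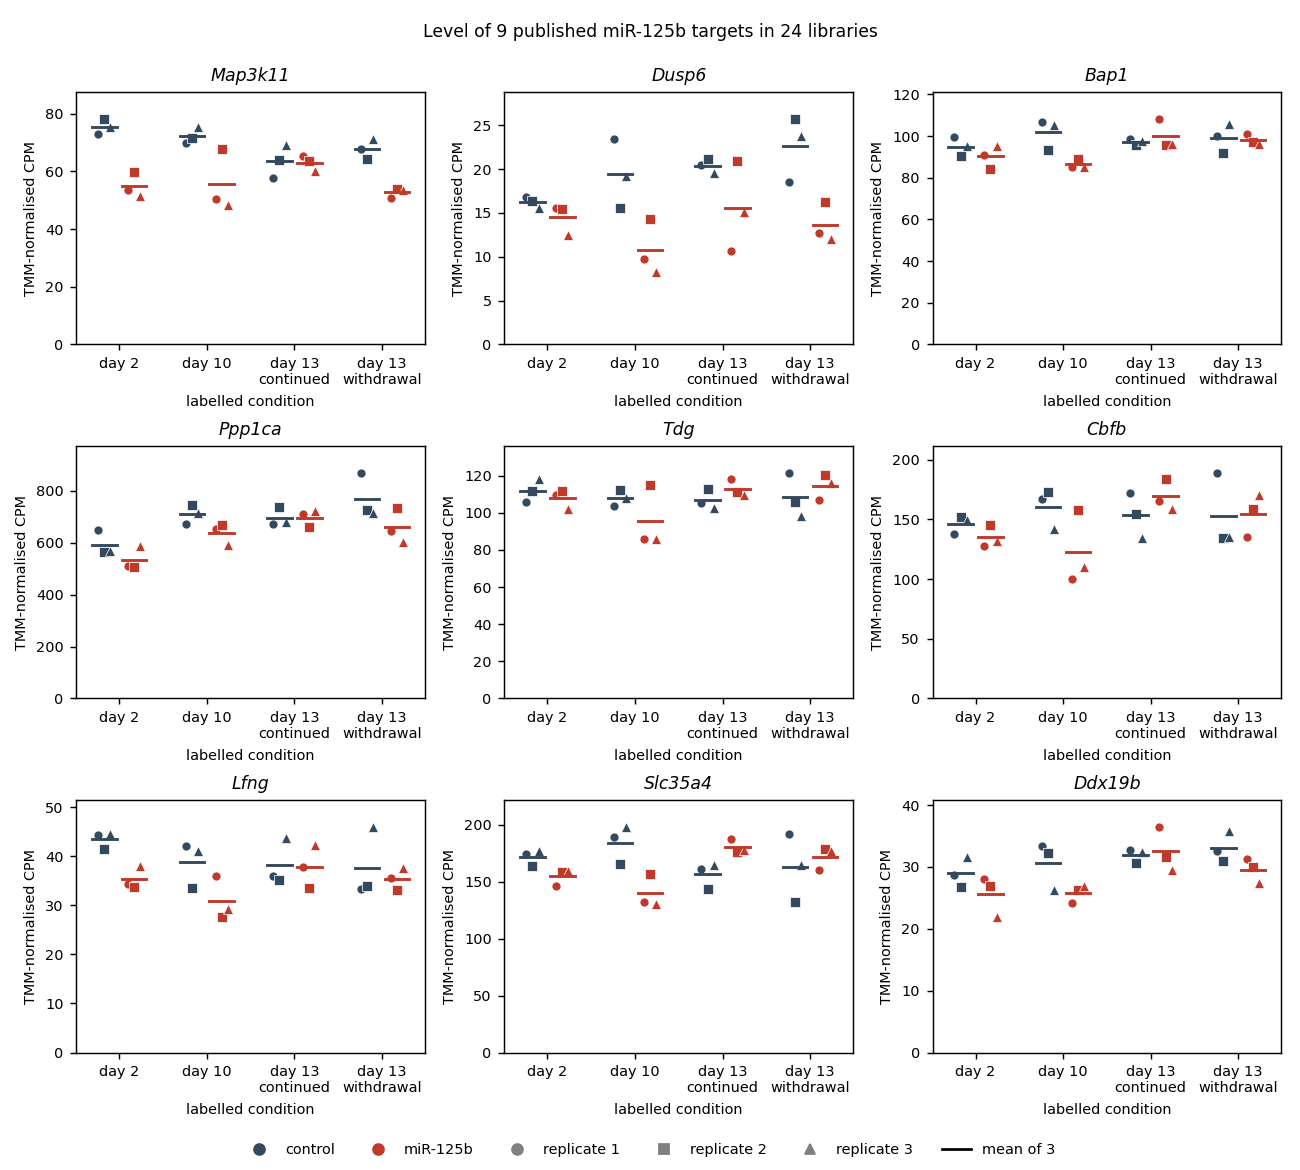
TMM-normalised CPM of the 9 genes in every library, with the labelled condition on the x axis, colour for the arm, marker shape for the replicate number and a line for the mean of 3. The Map3k11 arms do not overlap at day 2, at day 10 or in the day 13 groups labelled withdrawn, and they lie on the same level in the day 13 groups labelled continued.

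The first question was whether these 9 genes were lower in the miR-125b arm than in the control arm. They were chosen with earlier results of these data known. The shares of all genes given beside them are therefore a background and no test of published targets as a class. At day 2 all 9 log2 fold changes were below 0, as were 49.1% of those of all tested genes, with a median of -0.15 against 0.0039 over all tested genes. At day 10 all 9 were below 0 again, against 49.4% of all genes, with a median of -0.33 against 0.0042. In the day 13 groups labelled continued 3 were below 0 and 6 above, against 53.8% below 0 over all genes, with a median of 0.025 against -0.016. In those labelled withdrawn 6 were below 0, against 52.3%, with a median of -0.090 against -0.012. Dusp6, Map3k11 and Lfng were below 0 in all 4 comparisons, which was the case for 9.56% of all tested genes.

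None of the 9 genes passed the threshold of an adjusted p under 0.05 in any of these 4 comparisons, in edgeR's quasi-likelihood test without a block. At day 2 the test called 0% of all 13419 genes, and 2 of the 9 (Map3k11 and Lfng) had an unadjusted p under 0.05, as did 5.28% of all genes. At day 10 it called 0.872% of all genes, 7 of the 9 had an unadjusted p under 0.05, against 17.4% of all genes, and the adjusted p of the 9 ran from 0.0699 for Dusp6 to 0.425 for Ppp1ca. In the day 13 groups labelled continued it called 0% of all genes and 0 of the 9 had an unadjusted p under 0.05, against 2.89%. In those labelled withdrawn it called 0.119%, and 3 of the 9 (Map3k11, Dusp6 and Ppp1ca) had an unadjusted p under 0.05, against 8.55%.

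The libraries with the same replicate number deviated together, and a fit with the number as a block called 4 of the 9 genes lower at day 10, against 3.89% of all genes called lower and 8.63% called in either direction by the same fit. These were Dusp6 (edgeR adjusted p with block = 0.0117), Map3k11 (0.0213), Slc35a4 (0.0255) and Bap1 (0.0447). DESeq2 without a block called the same 4 at day 10 and 573 genes in all, 4.63% of those it tested. Neither of these 2 alternatives called any of the 9 in the other 3 comparisons of the arms, where the fit with the block called 0% of all genes at day 2, 0.0149% in the groups labelled continued and 1.86% in those labelled withdrawn. The day 10 count depended on single libraries. Without replicate 2 of the miR-125b arm 5 of the 9 were called (Tdg, Slc35a4, Map3k11, Cbfb and Dusp6), against 5.84% of all genes. Without replicate 2 of the control 2 were called (Slc35a4 and Dusp6), against 1.37%. That miR-125b library had the highest value of its group in 7 of the 9 genes. Leaving out any other single library left the count at 0. Leaving out the replicate 2 libraries of all groups gave 3, in a fit that called 658 genes in all.

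**Figure D3:**
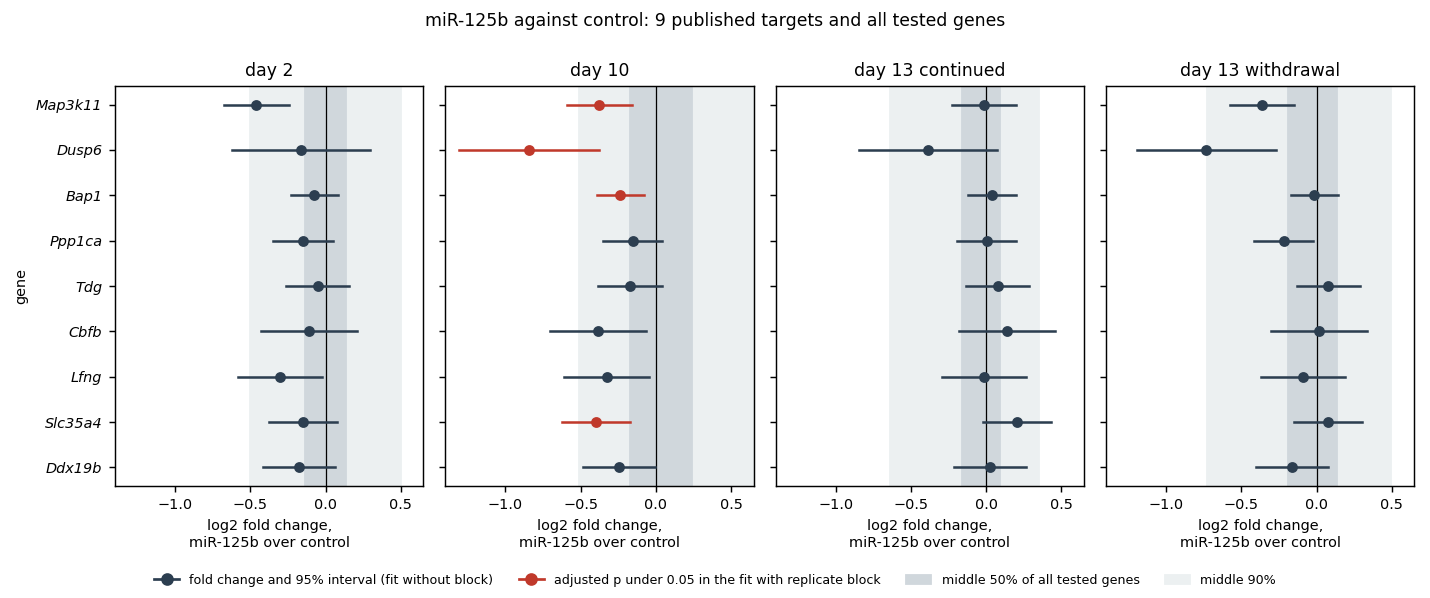
Log2 fold change of miR-125b over control with its 95% interval for the 9 genes in 4 conditions, from the fit without a block, over the middle 50% and 90% of all 13419 tested genes (grey). Red marks the 4 genes called at day 10 in the fit with the replicate block, and all 9 points lie below 0 at day 2 and at day 10.

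Among the signalling enzymes, Map3k11 encodes the mixed-lineage kinase MLK3, which activates the JNK and p38 cascades. The gene (chr19:5688742-5702865, plus strand) has its 8-base match at chr19:5702609-5702616, 265 bases after the stop codon. At day 2 the miR-125b libraries 1 to 3 had 53.4, 59.7 and 51.3 CPM and the control libraries 73.1, 78.1 and 75.3 CPM. Every miR-125b library was thus below every control library. The log2 fold change was -0.46 ± 0.10 (SE), whose p ranked 4 of 13419 genes, but with edgeR's adjusted p at 0.768, or 0.138 with the block, no call was made. The day 2 groups did not overlap, with miR-125b lower, in 3 of the 9 genes (Map3k11, Lfng and Slc35a4), against 6.22% of all genes.

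At day 10 Map3k11 stood at 50.5, 67.8 and 48.4 CPM with miR-125b and at 69.7, 71.6 and 75.3 CPM in the control. The groups again did not overlap, although replicate 2 of the miR-125b arm lay close to the controls. This gave a log2 fold change of -0.38 ± 0.10 (edgeR adjusted p = 0.0775, and 0.0213 with the block). Non-overlap with lower values under miR-125b held for 5 of the 9 genes at day 10 (Map3k11, Dusp6, Slc35a4, Bap1 and Ppp1ca), against 10.5% of all genes.

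In the day 13 libraries labelled continued, Map3k11 had 65.3, 63.7 and 60.2 CPM with miR-125b and 57.8, 64.1 and 69.2 CPM in the control. Here the arms overlapped fully and the log2 fold change was -0.014 ± 0.10. In those labelled withdrawn it had 50.8, 53.8 and 53.7 CPM with miR-125b and 67.9, 64.3 and 71.3 CPM in the control, without overlap. Their log2 fold change was -0.36 ± 0.10 (edgeR adjusted p = 0.220, and 0.0563 with the block). Map3k11 and Dusp6 were the 2 of the 9 genes whose arms did not overlap, with miR-125b lower, in the groups labelled withdrawn, against 5.62% of all genes. Over all 12 same-numbered pairs of libraries, Map3k11 was lower with miR-125b in 11, and at least 11 lower pairs were found in 2.22% of all genes. These pairs are 3 replicate numbers seen in 4 conditions, so they may not be 12 independent observations.

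The miR-125b effect on Map3k11 in the groups labelled withdrawn minus that in the groups labelled continued was -0.35 ± 0.15 on the log2 scale (95% interval -0.65 to -0.045). The unadjusted p was 0.0266 and the adjusted p 0.9999 in edgeR, so the difference did not pass the threshold. Within the miR-125b arm the log2 difference of the libraries labelled withdrawn from those labelled continued was -0.26 ± 0.10 and the groups did not overlap, as was the case in this direction for 4.45% of all genes. Within the control arm the same difference was 0.091 ± 0.10. Of the 5 listed genes of the JNK cascade (Map2k4, Map2k7, Mapk8, Mapk9 and Jun), 0 passed the test in any of the 4 comparisons. An unadjusted p under 0.05 was found for 1 at day 2, 2 at day 10, 0 in the groups labelled continued and 1 in those labelled withdrawn.

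Dusp6 encodes a cytoplasmic phosphatase that switches off ERK and is itself induced by ERK activity. It lies at chr10:99263231-99267489 on the plus strand, and its only match, TCAGGGA at chr10:99267249-99267255, lacks the last seed base. It was the least abundant of the 9 in raw CPM. At day 2 it had 15.6, 15.5 and 12.498 CPM with miR-125b and 16.8, 16.4 and 15.5 CPM in the control. The arms overlapped by 1 library of each, and the log2 fold change was -0.16 ± 0.22. At day 10 it had 9.78, 14.4 and 8.27 CPM with miR-125b and 23.5, 15.6 and 19.2 CPM in the control. All miR-125b libraries were below all controls, with the replicate 2 libraries of both arms nearest to each other. The day 10 log2 fold change, -0.84 ± 0.22, was the farthest from 0 among the 9 genes and had an edgeR adjusted p of 0.0699, or 0.0117 with the block.

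In the day 13 libraries labelled continued, Dusp6 spread from 10.6 and 15.1 CPM to 21.0 CPM with miR-125b, against 20.5, 21.1 and 19.5 CPM in the control. The replicate 2 libraries were at the same level and the other 2 pairs were lower with miR-125b, giving a log2 fold change of -0.39 ± 0.22. In those labelled withdrawn it had 12.7, 16.2 and 12.1 CPM with miR-125b and 18.6, 25.7 and 23.8 CPM in the control, again without overlap. That log2 fold change was -0.73 ± 0.22 (edgeR adjusted p = 0.277, and 0.0507 with the block). Dusp6 was lower with miR-125b in 12 of 12 same-numbered pairs, as were 0.492% of all genes. Here too the pairs may not be independent of each other.

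From day 2 to day 10 the log2 difference of Dusp6 was -0.43 ± 0.22 with miR-125b and 0.26 ± 0.22 in the control. The difference between these, -0.68 ± 0.31, had an unadjusted p of 0.0412 and an edgeR adjusted p of 0.709, so it was not called. Of the 13 listed genes of the ERK pathway and its feedback (among them Spry1, Spry2, Spry4, Dusp4, Dusp5, Etv4 and Etv5), 0 passed the test in any comparison of the arms. At day 2 their median log2 fold change was 0.15 with 11 above 0, and at day 10 it was 0.062 with 8 above 0. At day 13 it was, in the groups labelled continued, -0.042 with 5 above 0, and in those labelled withdrawn 0.014 with 7 above 0.

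**Figure D4:**
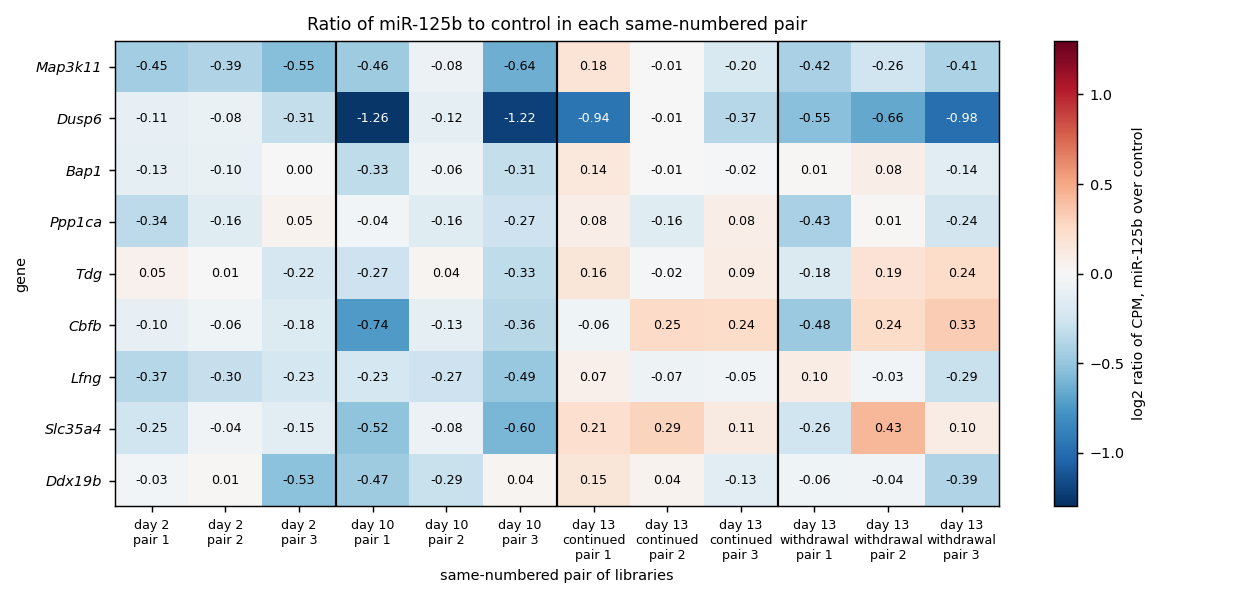
Log2 ratio of CPM, miR-125b over control, in each of the 12 same-numbered pairs of libraries, for each of the 9 genes, with blue for lower and red for higher with miR-125b. Dusp6 is below 0 in 12 of 12 pairs and Map3k11 in 11 of 12, while Slc35a4 is below 0 in all 3 pairs at day 2 and at day 10 and above 0 in all 3 pairs labelled continued.

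Ppp1ca encodes a catalytic subunit of protein phosphatase 1, which removes phosphate from serine and threonine in many cell processes, mitosis among them. It lies at chr19:4192065-4195420 on the plus strand with a 7-base match at chr19:4195311-4195317. Group means at day 2 were 533 ± 45.6 CPM (SD, n = 3) with miR-125b and 592 ± 47.6 CPM in the control, with overlap. At day 10 the libraries had 653, 667 and 591 CPM with miR-125b and 671, 744 and 712 CPM in the control, which do not overlap but come within a few CPM of each other. Its log2 fold change was -0.15 ± 0.094 at day 2 and -0.16 ± 0.094 at day 10. In the groups labelled continued the means were 697 ± 33.2 and 696 ± 35.5 CPM, a log2 fold change of 0.0016 ± 0.094. In those labelled withdrawn they were 661 ± 65.1 and 769 ± 85.8 CPM, with overlap and a log2 fold change of -0.22 ± 0.094 (edgeR adjusted p = 0.525). Ppp1ca was the only one of the 9 whose day 10 libraries lay above all day 2 libraries in both arms. The time difference was 0.26 ± 0.094 in each arm (edgeR adjusted p = 0.207 with miR-125b and 0.541 in the control), and such non-overlap was found in 8.99% of all genes in the miR-125b arm and in 7.71% in the control. Of its 5 listed partners, the related catalytic subunits Ppp1cb and Ppp1cc and 3 regulators, 0 were called in any comparison of the arms.

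Bap1 encodes a deubiquitinase that removes ubiquitin from histone H2A and acts as a tumour suppressor, in complexes with Asxl1 and Asxl2. It lies at chr14:31251450-31259944 on the plus strand and holds an 8-base match at chr14:31259346-31259353 and a 7-base match at chr14:31259705-31259711. The day 10 libraries had 85.0, 89.2 and 85.3 CPM with miR-125b and 107, 93.3 and 105 CPM in the control. The arms did not overlap, and the replicate 2 libraries were again the closest. Bap1 had a log2 fold change of -0.24 ± 0.076 (edgeR adjusted p = 0.114, and 0.0447 with the block). At day 2 the means were 90.2 ± 5.60 and 94.98 ± 4.53 CPM (SD, n = 3), and in the groups labelled continued 99.9 ± 7.13 and 97.3 ± 1.27 CPM. In the groups labelled withdrawn they were 98.1 ± 2.498 and 99.2 ± 6.95 CPM. In these 3 conditions the arms overlapped and the log2 fold changes were -0.074, 0.039 and -0.016, each with an SE of 0.076. Of the 6 listed partners (Asxl1, Asxl2, Foxk1, Foxk2, Hcfc1 and Ogt), 0 were called.

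Cbfb encodes the subunit that raises the DNA binding of the RUNX transcription factors and is needed for definitive blood formation and megakaryocyte maturation. It lies at chr8:105170674-105217989 on the plus strand, with TCAGGGA at chr8:105216725-105216731 as its best match. Its day 10 libraries had 99.9, 158 and 110.1 CPM with miR-125b and 167, 172 and 142 CPM in the control. The arms overlapped because replicate 2 with miR-125b lay among the controls. A log2 fold change of -0.39 ± 0.15 had an edgeR adjusted p of 0.190, or 0.0845 with the block, and without that library Cbfb was called. At day 2 the means were 135 ± 9.18 and 146 ± 7.66 CPM (SD, n = 3) and the log2 fold change was -0.11 ± 0.15. In the groups labelled continued they were 169 ± 13.1 and 154 ± 18.8 CPM (0.14 ± 0.15), and in those labelled withdrawn 155 ± 17.8 and 153 ± 31.1 CPM (0.018 ± 0.15). All 3 pairs at day 2 were lower with miR-125b, and at day 13 the differences between the means were within the larger SD of each comparison. Of its RUNX partners, Runx3 rose at day 10 with miR-125b, from 167 ± 11.2 to 246 ± 49.8 CPM (SD, n = 3, log2 fold change 0.56 ± 0.12, edgeR adjusted p = 0.0394). Runx1, the partner best known in megakaryocytes, averaged 165 ± 35.3 CPM with miR-125b and 141 ± 50.2 CPM in the control at day 10 and was not called.

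Tdg encodes thymine DNA glycosylase, which removes thymine from mismatches and the oxidised forms of methylcytosine. It lies at chr10:82629828-82650799 on the plus strand, with a 7-base match at chr10:82648743-82648749, 23 bases after the stop codon. At day 10 it had 85.9, 115 and 86.1 CPM with miR-125b and 104, 112 and 108 CPM in the control. The replicate 2 library with miR-125b was the highest of the 6 and the other 2 were the lowest. For Tdg the log2 fold change was -0.17 ± 0.10 (edgeR adjusted p = 0.404). At day 2 the means were 108 ± 5.31 and 112 ± 6.20 CPM (SD, n = 3) with a log2 fold change of -0.053 ± 0.10. At day 13 they were 113 ± 4.52 and 107 ± 5.30 CPM in the groups labelled continued and 115 ± 7.06 and 109 ± 11.8 CPM in those labelled withdrawn, with log2 fold changes of 0.077 and 0.078. Tdg had the fewest lower pairs of the 9 genes, 5 of 12. Its 4 listed companions in base excision (Mbd4, Ung, Smug1 and Apex1) had 0 calls.

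Lfng encodes lunatic fringe, a glycosyltransferase that adds a sugar to Notch receptors and changes which ligands they answer to. It lies at chr5:140607320-140615545 on the plus strand, with an 8-base match at chr5:140615478-140615485 and a 7-base match at chr5:140614773-140614779. At day 2 it had 34.3, 33.7 and 38.0 CPM with miR-125b and 44.3, 41.6 and 44.5 CPM in the control. Every miR-125b library was below every control, with a log2 fold change of -0.30 ± 0.13 (edgeR adjusted p = 0.939). At day 10 it had 35.9, 27.7 and 29.2 CPM with miR-125b and 42.0, 33.5 and 41.0 CPM in the control. The arms overlapped by replicate number, since replicate 1 with miR-125b exceeded replicate 2 of the control, yet all 3 pairs were lower. The log2 fold change was -0.33 ± 0.13 (edgeR adjusted p = 0.205, and 0.0528 with the block). At day 13 the means were 37.9 ± 4.38 and 38.3 ± 4.69 CPM in the groups labelled continued and 35.4 ± 2.23 and 37.7 ± 7.12 CPM in those labelled withdrawn (SD, n = 3). The log2 fold changes were -0.015 ± 0.13 and -0.090 ± 0.13. The replicate number held 27.0% of the variance of its log2 CPM, the highest share among the 9 genes. Of the 6 listed genes around it (Notch1, Notch2, Mfng, Rfng, Hes1 and Pofut1), 0 were called without the block. Notch1 was called higher at day 10 with the block (edgeR adjusted p = 0.0192), where 4.74% of all genes were called higher. Its level was low, at 4.12 ± 1.74 CPM with miR-125b and 1.76 ± 1.65 CPM in the control.

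Slc35a4 encodes a member of the nucleotide sugar transporter family, and it has an 8-base match 492 bases after its stop codon. At day 2 it had 146, 159 and 159 CPM with miR-125b and 175, 163 and 177 CPM in the control. The values at day 10 were 132, 157 and 131 CPM with miR-125b and 189, 165 and 198 CPM in the control. In both conditions the arms did not overlap and miR-125b was lower. The log2 fold change was -0.15 ± 0.11 at day 2 and -0.40 ± 0.11 at day 10 (edgeR adjusted p = 0.0754 at day 10, and 0.0255 with the block). In the day 13 libraries labelled continued the order was turned around, with 187, 176 and 178 CPM under miR-125b and 161, 144 and 164 CPM in the control. The arms did not overlap, with miR-125b higher, in 1 of the 9 genes (Slc35a4) in this condition, against 4.4% of all genes. This log2 fold change was 0.20 ± 0.11 (edgeR adjusted p = 0.999). In those labelled withdrawn the means were 172 ± 10.3 and 163 ± 29.7 CPM (SD, n = 3), with overlap and a log2 fold change of 0.076 ± 0.11.

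The miR-125b effect on Slc35a4 in the day 13 groups labelled continued minus that at day 10 was 0.60 ± 0.15 on the log2 scale (95% interval 0.28 to 0.92), a comparison added after the values had been seen. Its edgeR adjusted p was 0.1001, where 0.0224% of all genes were called, and 0.0332 with the block, where 3.85% were called. Minus the day 2 effect it was 0.35 ± 0.15 (adjusted p = 0.996), where 0% of all genes were called with and without the block. The other 8 genes were called in neither difference, with or without the block. Without replicate 2 of the miR-125b arm at day 10, the first difference was called for Slc35a4, Map3k11 and Cbfb, among 409 genes called in all.

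Ddx19b encodes a DEAD-box RNA helicase that works at the nuclear pore in messenger RNA export. It lies at chr8:111003188-111031751 on the minus strand, and the match shown above is at chr8:111007844-111007851, the nearest to the stop codon of 4. At day 2 it had 28.1, 27.0 and 21.9 CPM with miR-125b and 28.7, 26.7 and 31.6 CPM in the control. By day 10 the values were 24.2, 26.3 and 27.0 CPM with miR-125b and 33.4, 32.2 and 26.3 CPM in the control. The arms overlapped in both conditions, and a single pair made up most of the difference at day 2. The log2 fold change was -0.18 ± 0.11 at day 2 and -0.25 ± 0.11 at day 10 (edgeR adjusted p = 0.270 at day 10). In the groups labelled continued the means were 32.5 ± 3.54 and 31.96 ± 1.11 CPM, and in those labelled withdrawn 29.5 ± 1.99 and 33.1 ± 2.51 CPM (SD, n = 3). The log2 fold changes were 0.025 ± 0.11 and -0.17 ± 0.11. The gene with the most seed matches had neither the largest nor the most regular difference, and a link between these was not tested. Its near-identical neighbour Ddx19a averaged 104 ± 9.59 CPM with miR-125b and 116 ± 17.7 CPM in the control at day 10, and reads shared by the 2 copies may have been divided or dropped, so the Ddx19b level is uncertain.

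The effect of withdrawal was read from the day 13 groups in 3 ways. The miR-125b effect in the groups labelled withdrawn minus that in those labelled continued was below 0 in 8 of the 9 genes, against 49.8% of all genes. It ran from -0.35 (Map3k11) to 0.00082 (Tdg), with a median of -0.13 against 0.0013 over all genes. In edgeR 0 of the 9 were called, 0% of all genes were called, and 1 of the 9 had an unadjusted p under 0.05, against 1.68% of all genes. Within the miR-125b arm 0 of the 9 were called (0% of all genes) with a median log2 difference of -0.095, and within the control arm 0 of the 9 (0% of all genes) with a median of 0.052. An unadjusted p under 0.05 was found for 1 of the 9 in the miR-125b arm, against 2.21% of all genes, and for 0 in the control arm, against 2.65%.

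From day 2 to day 10 the 9 genes had a median log2 difference of -0.14 in the miR-125b arm and 0.10 in the control arm. In edgeR 0 of the 9 were called in either arm, against 0.224% and 0% of all genes, and Ppp1ca was the single one of the 9 with an unadjusted p under 0.05 in each, against 14.9% of all genes with miR-125b and 6.75% in the control. The miR-125b effect at day 10 minus that at day 2 was below 0 in 8 of the 9 genes, against 48.9% of all genes, with a median of -0.12 against 0.0084 over all genes. It was called for 0 of the 9 and for 0% of all genes, and 1 of the 9 (Dusp6) had an unadjusted p under 0.05, against 6.86% of all genes.

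Dusp6, lower with miR-125b in every pair, had TCAGGGA and no CTCAGGG, and Map3k11, lower in 11 of 12, had the 8-base form. Members with and without CTCAGGG were not compared by a test. Over all tested genes with a 3′ UTR, the share with a log2 fold change below 0 was 62.3% among those with CTCAGGG and 44.6% among those without at day 2, and 52.6% and 50.9% at day 10. It was 54.4% and 52.0% in the groups labelled continued and 63.9% and 49.5% in those labelled withdrawn. Whether the differences seen in the 9 genes are linked to these shares was not tested.

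The 39 tested genes of a list of 50 other published miR-125b targets had medians of -0.13 at day 2, -0.069 at day 10, -0.031 in the groups labelled continued and -0.15 in those labelled withdrawn, with 32, 22, 21 and 26 of them below 0. Like the 9 genes, this list, which holds Arid3a, was chosen with earlier results of these data known. The shares of all genes are again a background and no test of published targets as a class. In edgeR 0, 4, 0 and 2 of the 39 were called lower, against 0%, 0.417%, 0% and 0.0745% of all genes. Called higher were 0 in each comparison, against 0%, 0.455%, 0% and 0.0447% of all genes. At day 10 the lowest p-values belonged to Arid3a, Lin28b, which blocks the maturation of let-7 (-0.58 ± 0.11, adjusted p = 0.0262), and Lactb, a mitochondrial protein (-0.86 ± 0.18, adjusted p = 0.0311). In the groups labelled withdrawn they were Arid3a and Abtb1 (-1.25 ± 0.18, adjusted p = 0.00435). With the block 8 of the 39 were called lower at day 10 and 8 in the groups labelled withdrawn, against 3.89% and 1.09% of all genes. The single higher call with the block was Bcl2, a suppressor of cell death, at day 10, where 4.74% of all genes were called higher. Its log2 fold change was 0.38 ± 0.12 (edgeR adjusted p with block = 0.0493), and it was not called without the block (adjusted p = 0.492). Without the block, Runx3 at day 10 was the single call among 46 pathway partners of the 9 genes in the 4 arm comparisons. The medians of these partners lay between -0.022 and 0.023.

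Genes whose levels followed those of the 9 most closely were sought among 9826 genes by Pearson's r of log2 CPM over the 24 libraries, which share groups and replicate numbers. The closest were Ash2l to Cbfb (r = 0.947) with Sirt1 (0.899), Prmt5 to Slc35a4 (0.915) with Wdr46 (0.912), and Tlnrd1 to Map3k11 (0.899) with Zfp385a (0.853). For Tdg they were Aggf1 (0.882) and Ywhab (0.859), for Bap1 Med17 (0.869) and Ddx51 (0.847), and for Ppp1ca Stx18 (0.869) and Arhgdib (0.866). For Lfng they were Hexim1 (0.859) and Myc (0.818), for Dusp6 Gas2l1 (0.850) and Tmem8 (0.789), and for Ddx19b Ap4e1 (0.796) and Nsun3 (0.780). Among the 9 genes themselves the 36 values of r ran from -0.029 to 0.795, the latter between Tdg and Cbfb, with a median of 0.400.

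Exons of Map3k11, Slc35a4, Tdg and Ppp1ca overlap exons of genes on the opposite strand, by 89 bases with Pcnx3 and 430 bases with an antisense RNA for Map3k11, by 152 bases with Apbb3 for Slc35a4, by 367 bases with Glt8d2 for Tdg, and by 225 bases with Rad9a and 191 bases with an antisense RNA for Ppp1ca. Whether the counting used strand is not given in the sources used here, so reads from these stretches cannot be told apart.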

How the data were processed

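RNA of 24 libraries was sequenced. Per the submitters' processing notes the tools were fastp, HISAT2 2.0.5 and featureCounts with the genome mm10. The annotation release, the strand setting and any filter are not given in the sources used here. The deposited table held raw read counts per gene, 1 column per library, used as the authors made them, and 46574 of its 47069 identifiers matched GENCODE M21. Identifiers without a match took 0.0306% of the counts or less in every library.

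Genes were kept by edgeR's filterByExpr, which left 13419. One quasi-likelihood model (edgeR 4.0.16, R 4.3.3, TMM scaling with factors of 0.932 to 1.04, robust estimation) was fitted to all 24 libraries with 8 group coefficients and 16 residual degrees of freedom. The 10 contrasts were tested two-sided with Benjamini-Hochberg adjustment over all tested genes, and an adjusted p under 0.05 was a call. Errors of log2 fold changes are standard errors from the F statistic. Replicates of a group differed by more than sampling noise (chi-square per degree of freedom 10.7 to 99.9). The replicate numbers were taken to pair the libraries because all 84 same-numbered pairs of libraries in different groups deviated together (r from 0.163 to 0.781), and the fit with the number as a block was an alternative. Others were size-factor scaling, no low-count filter, DESeq2 1.42.0, only the groups compared, and leaving out libraries. The model was also run on simulated data whose log2 fold changes were larger than most of those described here. That run does not show how changes of the smaller size are recovered.

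Seed matches were sought in 1 3′ UTR per gene, the longest in GENCODE. The 9 genes and the lists of other targets, partners and cell markers were chosen with earlier results of these data known. By rule all 9 genes, Arid3a and Gata1, up to 3 called genes of the other targets per comparison and direction, called partners, and the 2 genes most like each of the 9 are named. The sequence at the Slc35a4 match is not printed here.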

Additional observations from a re-analysis of the deposited data

Results flagged for a closer look

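The miR-125b effect on Slc35a4 had opposite signs in different conditions. It was -0.15 on the log2 scale at day 2 and -0.40 at day 10, with all 3 same-numbered pairs lower with miR-125b in each, and 0.20 in the day 13 groups labelled continued, with all 3 pairs higher. The difference between day 13 and day 10 was 0.60 ± 0.15 (edgeR adjusted p = 0.1001, and 0.0332 with the replicate block), and that between day 13 and day 2 was 0.35 ± 0.15 (adjusted p = 0.996).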

How the results depend on the processing

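The count of the 9 genes called at day 10 was 0 in the fit reported first, 4 with the replicate block, 4 with DESeq2, and 0 to 5 when single libraries or all libraries of 1 replicate number were left out. For the day 13 effect minus the day 10 effect it was 0, 1, 1 and 0 to 3. The counts of the 9 called in the other comparisons stayed at 0 under every alternative run, the replicate block included. The counts for day 10 and for that difference stayed at 0 with size-factor scaling, without a filter and with only the groups compared. Over all genes the day 10 calls were 117, against 1158 with the block, 573 with DESeq2, 65 without a filter, 0 with only the groups compared and 0 to 799 without single libraries. The calls in the groups labelled withdrawn were 16, against 249, 89, 10 and 0. From day 2 to day 10 with miR-125b they were 30, against 547, 303, 18 and 4, and in the control they were 0, against 20 with the block and 54 with DESeq2. For the day 13 minus the day 10 effect they were 3, against 517 with the block, 302 with DESeq2 and 0 with only the groups compared. With libraries left out they were 0 to 409. All-gene counts that were 0 reached at most 8 in the remaining comparisons. Of the 9 genes, 7 held CTCAGGG, 5 the 8-base form and 9 the 6-base form, and 7 when any annotated 3′ UTR was taken.

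For Tdg, the miR-125b effect in the groups labelled withdrawn minus that in those labelled continued was 0.00082 on the log2 scale. It turned to -0.013 with size factors, -0.0062 without a filter, -0.0014 with the block, -0.017 with only the groups compared and -0.012 with DESeq2. Leaving out libraries turned further values that lay near 0. At day 2 this was Tdg (-0.10 to 0.027). With the groups labelled continued these were Ddx19b (-0.065 to 0.0999), Lfng (-0.10 to 0.090), Map3k11 (-0.089 to 0.082), Bap1 (-0.022 to 0.072) and Ppp1ca (-0.040 to 0.086). With those labelled withdrawn they were Lfng (-0.17 to 0.078), Slc35a4 (-0.077 to 0.27), Bap1 (-0.067 to 0.049) and Cbfb (-0.14 to 0.29). For the miR-125b effect labelled withdrawn minus that labelled continued they were Lfng (-0.18 to 0.093), Tdg (-0.10 to 0.17), Slc35a4 (-0.26 to 0.052), Bap1 (-0.12 to 0.0074) and Cbfb (-0.23 to 0.058). For the day 13 minus the day 2 effect it was Dusp6 (-0.49 to 0.037). The cause was not tested. The lowest count behind a value of the 9 genes was 153, for Dusp6, and each group held 3 libraries.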
